A study of Glycine max with 6 samples.

Results

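Glutathione S-transferases are enzymes that join glutathione, or in soybean and some other legumes homoglutathione, to reactive small molecules, which are then moved into the vacuole. The plant family falls into classes. The tau and phi classes are the large ones and are best known for herbicide and stress responses, while zeta enzymes act in tyrosine breakdown. Lambda enzymes and dehydroascorbate reductases carry a catalytic cysteine and act in thiol transfer and ascorbate recycling rather than conjugation. The members described here are the soybean probe sets of an Affymetrix soybean array for which every paired gene has a symbol or synonym that starts with GST or GmGST. The rule found 63 probe sets among 37593 for soybean. They represent 41 genes, out of 74 of the RefSeq soybean annotation that match it and out of 6392 genes of any kind that the annotation pairs with a soybean probe set. Of the 63 probe sets, 41 belong to the tau class, 7 to phi, 7 to lambda, 3 to zeta, 2 to theta and 1 to the dehydroascorbate reductases. The class letter was read from the symbol or, where that has none, from the synonym, which placed GST3 (GSTU53) and GSTa (GSTU48) in tau and GST24 (GSTF10) in phi. The last 2 probe sets belong to GSTIR, whose only synonym is GmTIR. Neither name carries a class letter, so GSTIR was kept apart and no role is given to it.

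The leaves came from soybean (Glycine max) cultivar OAC Bayfield, grown in a chamber with 16 h of light, in individual pots. At the V1 stage the first trifoliolate leaf received 2 mL of spray, which contained 0.02% Tween 20 in both groups. In the LCO group it also held 1e-07 M of the lipo-chitooligosaccharide NodBj-V (C18:1, MeFuc) of Bradyrhizobium japonicum strain 532C, a Nod factor by which this rhizobium signals to soybean roots. The leaf was taken 48 h later, with 3 arrays per group, and the comparison asks which transcripts of the sprayed leaf differ with LCO. Nothing in the labels tells whether a replicate is its own plant or a pool, so every p-value below reflects the scatter among these 6 arrays, part of which may be technical.

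The arrays were not equally far apart. The log2 differences between water 1 and water 2 had an SD of 0.198, against 0.341 to 0.695 in the other pairs of arrays, and how far each result depends on them is given with it. The arrays read as leaf: 15 of 18 probe sets of photosynthesis genes lay above background, with none changed, while 3 of 5 of the nodule list and all glycinin and conglycinin probe sets did not. Of the 19 probe sets of the seed storage list, the 3 above background belong to trypsin inhibitor genes, and the list's summed level was 10.0 to 10.7 in water and 8.56 to 9.55 with LCO (log2), with none past the threshold. The phloem list was above background in 7 of 11 probe sets, and its summed level was 7.88 to 8.00 in water and 8.41 to 9.04 with LCO (log2), with none past the threshold and 4 at background. In the P450 control of the array the 3′ probe set exceeded the 5′ probe set by 1.01, 0.97 and 0.95 in water and by 2.13, 1.74 and 2.92 with LCO (log2), while in the r2 actin control the difference was 1.27 to 1.56 over the 6 arrays. In the GlutTrans control this difference was 0.21, 0.15 and 0.79 in water and 0.30, 0.65 and 0.84 with LCO. The part of these levels and of this RNA measure in the results below was not tested. Fewer cells of a type and less RNA per cell cannot be told apart in these bulk leaf samples.

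Background was set at a log2 value of 3.31, below which 90% of the means of the nematode and oomycete probe sets on the array lay. Of the 63 members, 49 lay above it in their mean over the 6 arrays and were tested among 29286 soybean probe sets. They cover 33 of the 41 genes. No tested member had all arrays of a group under background.

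With LCO, 1 of the 49 tested members rose and 5 fell, while 43 did not pass (limma, Benjamini-Hochberg adjusted p under 0.05 over all probe sets tested). Over all tested probe sets, 1.67% rose, 1.88% fell and 3.55% changed in either direction, whereas 2.04% of the tested members rose and 10.2% fell. Estimates went both ways within the family, with 23 higher and 26 lower. Their median log2 change was -0.04, beside -0.01 over all probe sets tested, and they ran from -2.03 to 2.88. A log2 change over 0.5 in size was estimated for 20 of the 49, beside 16.9% of all probe sets. The groups did not overlap in 10 members that were higher with LCO, beside 15.3% of all probe sets, and in 15 that were lower, beside 16.3%, or 31.5% in both directions together. At an unadjusted p under 0.05 there were 22 members, 14 lower and 8 higher, beside 25.8% of all probe sets. The count of members that fell was 1 without water 1, without water 2 or without LCO 1, 2 without LCO 3, 5 without LCO 2 and 7 without water 3. The count that rose was 2 without water 3 or without LCO 1 and 1 without each of the other arrays. Over all tested probe sets, 199, 193 and 2207 passed without water 1, 2 and 3. Without LCO 1, 2 and 3, 570, 416 and 291 passed, beside 1040 with all arrays.

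**Figure D1:**
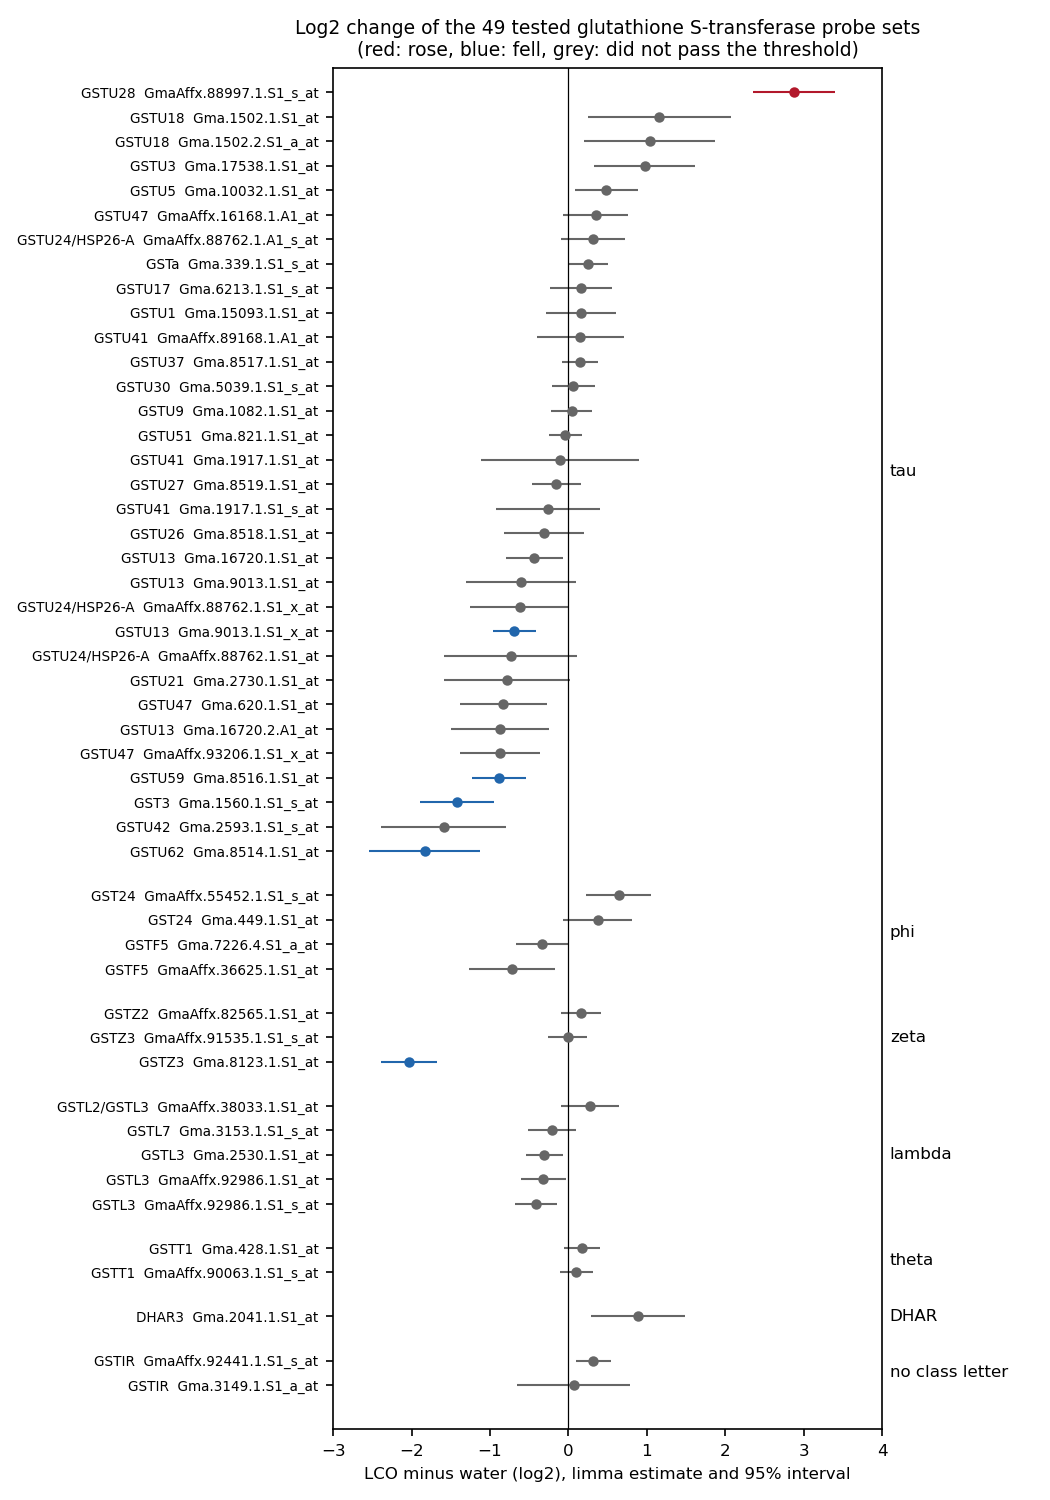
Log2 change (LCO minus water, x axis) of each of the 49 tested glutathione S-transferase probe sets (rows, grouped by class), with the 95% interval of the limma fit. GSTU28 lies alone at 2.88 on the right, and 4 tau probe sets and 1 zeta probe set that fell lie between -0.69 and -2.03.

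The tau class held the member that rose, GSTU28 (Entrez gene 100306196). Its log2 values were 6.54, 6.49 and 6.67 in water and 9.33, 9.92 and 9.08 with LCO. Every LCO array lay far above every water array, and the water arrays were the closer group (SD 0.09 against 0.43). The change was 2.88 (SE 0.22, 95% interval from 2.36 to 3.40, adjusted p = 0.00212), or 7.35-fold. It passed with each of the 6 arrays left out in turn, at changes from 2.64 to 3.06. The ID ends in _s_at, the manufacturer's mark for probes shared by several transcripts, so transcripts of close relatives may be read with it.

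Among the 4 tau probe sets that fell, GSTU62 (Entrez gene 547586) stood at 5.65, 5.67 and 5.97 in water and at 4.15, 4.39 and 3.25 with LCO. LCO 3 lay under background, and the groups did not overlap. The change was -1.83 (SE 0.29, 95% interval from -2.54 to -1.13, adjusted p = 0.0303). GST3 (Entrez gene 547925), for which the annotation also lists the name glyoxalase I, went from 6.76, 6.80 and 7.31 to 5.36, 5.82 and 5.44. The LCO arrays were all lower than the lowest water array, with water 3 the highest of the 6, and the change was -1.42 (SE 0.20, 95% interval from -1.89 to -0.95, adjusted p = 0.0210).

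GSTU59 (Entrez gene 548029) read 5.91, 5.49 and 5.47 in water and 4.77, 4.80 and 4.66 with LCO. The LCO arrays lay close together (SD 0.08), and the change was -0.88 (SE 0.14, adjusted p = 0.0317). GSTU13 (Entrez gene 547582) read 5.96, 6.04 and 5.97 in water and 5.33, 5.45 and 5.13 with LCO, a change of -0.69 (SE 0.11, adjusted p = 0.0319). This was the smallest of the changes that passed, and here the water arrays were the ones that lay close together.

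These 4 calls did not pass in every fit that leaves out an array. Over all tested probe sets, too, fewer passed in each such fit than with all arrays, except in that without water 3. GST3 passed in 2 of the 6 fits that leave out an array, those without water 3 and without LCO 2, and its adjusted p ran from 0.0210 to 0.0824 over the 6. GSTU62 passed in 3, those without water 3, LCO 2 or LCO 3, with an adjusted p up to 0.120. GSTU59 and GSTU13 passed in 1, that without water 3, with an adjusted p up to 0.111 and 0.152. The size of the estimates moved less, from -1.24 to -1.56 for GST3, from -1.50 to -2.06 for GSTU62, from -0.74 to -0.96 for GSTU59 and from -0.60 to -0.76 for GSTU13.

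**Figure D2:**
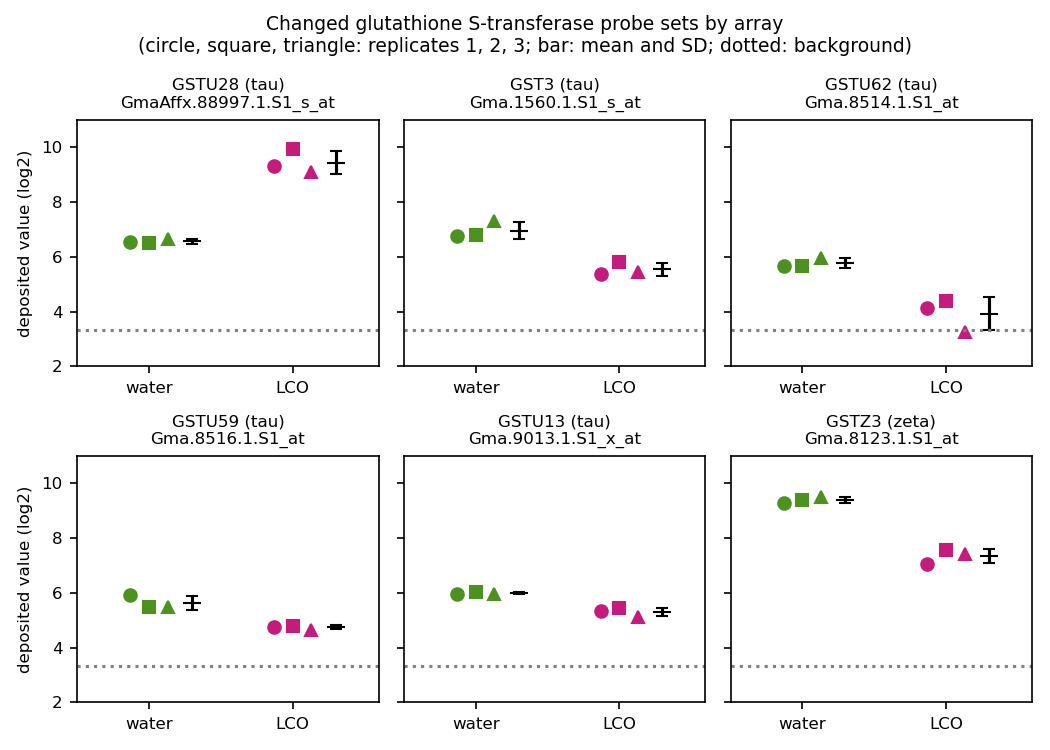
Deposited log2 values (y axis) of the 6 changed probe sets in each water and LCO array, with the mean and SD of 3 arrays beside the points and the background level dotted. In every panel the groups are apart, and for GSTU62 1 LCO array lies under the dotted line.

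The other 27 tested tau probe sets did not pass. Their estimates ran from -1.59 to 1.16. Several of those nearest the threshold, chosen after their values were seen, were large. GSTU42 read 5.99, 5.77 and 5.96 in water and 3.95, 5.13 and 3.86 with LCO, a change of -1.59 (SE 0.33, adjusted p = 0.0581) in which LCO 2 stood closest to water. Without LCO 2 it was -2.00 (adjusted p = 0.00609), the 1 fit of the 6 that leave out an array in which it passed. GSTU3 read 9.80, 9.75 and 10.64 in water and 10.77, 11.06 and 11.28 with LCO, a change of 0.97 (SE 0.27, adjusted p = 0.0966). Here water 3 lay just under the LCO arrays, and the change was 1.26 (adjusted p = 0.0214) without it. GSTU3 passed in that 1 fit of the 6. Without water 3, 2207 of all tested probe sets passed, beside 1040 with all arrays.

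GSTU18 was higher with LCO in both tested probe sets, by 1.16 (SE 0.38, adjusted p = 0.129) and 1.04 (SE 0.35, adjusted p = 0.134). In the first the arrays read 4.72, 5.28 and 5.33 in water and 5.42, 6.85 and 6.54 with LCO. The groups did not overlap, but LCO 1 stood just above water 3. Without LCO 1 the change was 1.58 (adjusted p = 0.0385), the 1 fit of the 6 in which this probe set passed. The other GSTU18 probe set passed in 0 of the 6.

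For some tau probe sets a narrow interval bounds the change that the probe set read, which need not be that of the gene. The IDs of those of GSTa and GSTU30 end in _s_at. GSTa, known as a gene induced by an auxin herbicide, read 11.22, 11.15 and 11.40 in water and 11.50, 11.58 and 11.43 with LCO, a change of 0.25 with an interval from -0.01 to 0.51. The interval was -0.09 to 0.38 for GSTU37, -0.21 to 0.34 for GSTU30, -0.22 to 0.30 for GSTU9 and -0.25 to 0.17 for GSTU51. Changes of 2-fold, a log2 change of 1, lie outside all 5 of these. They do not lie outside the interval of GSTU21, from -1.59 to 0.02, or of a GSTU41 probe set, from -1.11 to 0.89.

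In the phi class, 4 of 7 probe sets were tested and none passed, with 1 lower and 1 higher at an unadjusted p under 0.05. Over all tested probe sets, 25.8% had such a p. With 3.55% of all probe sets past the threshold, no call among so few says little about this class, and the same holds for lambda and theta. GST24 was higher in both of its probe sets. They read 8.17, 8.04 and 7.73 in water and 8.88, 8.60 and 8.38 with LCO in the first (0.64, SE 0.17, adjusted p = 0.0909), and 8.80, 8.55 and 8.13 against 9.02, 8.83 and 8.76 in the second (0.38, adjusted p = 0.249). The groups were apart in the first and overlapped in the second. GSTF5 was lower in both of its tested probe sets. The larger estimate came from 5.58, 5.57 and 5.65 in water against 5.24, 5.07 and 4.35 with LCO (-0.72, SE 0.23, adjusted p = 0.125), with LCO 3 well under the other arrays, and the smaller was -0.33 (adjusted p = 0.196). The estimates of the 2 genes were thus opposite in sign, and that difference was not tested.

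The zeta class, whose enzymes act as maleylacetoacetate isomerases in tyrosine breakdown, held the other call that passed with each array left out in turn. A probe set of GSTZ3 (Entrez gene 547590), whose ID ends in _at, read 9.28, 9.39 and 9.49 in water and 7.07, 7.56 and 7.43 with LCO. Each LCO array was far below each water array. It fell by 2.03 (SE 0.15, 95% interval from -2.39 to -1.67, adjusted p = 0.00195), 4.08-fold, and passed with each of the 6 arrays left out, at an adjusted p up to 0.0194. The other GSTZ3 probe set, whose ID ends in _s_at, read 7.73, 7.91 and 7.97 in water and 7.80, 7.92 and 7.86 with LCO. Its change was -0.01, with an interval from -0.26 to 0.24. GSTZ2, the gene next to GSTZ3 in the annotation, read 7.69, 7.89 and 7.80 in water and 7.83, 8.04 and 8.00 with LCO (0.16, interval from -0.09 to 0.42).

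The disagreement within GSTZ3 was itself larger than the spread between arrays. The second probe set minus the first was -1.54, -1.48 and -1.51 in water and 0.73, 0.37 and 0.43 with LCO. These groups were 2.02 log2 units apart, and the exact two-sided permutation p was 0.1, the smallest that 3 against 3 arrays can give (0.1 after Benjamini-Hochberg adjustment over the 2 genes compared in this way, both chosen after their values were seen). With the mean over both, GSTZ3 had a change of -1.02.

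In the lambda class, 5 of 7 probe sets were tested and none passed. GSTL3 was lower in all 3 probe sets that are its alone, by -0.42, -0.32 and -0.31, and the groups did not overlap in any of them. In the first of these, the arrays read 11.60, 11.70 and 11.56 in water and 11.07, 11.36 and 11.18 with LCO (SE 0.11, adjusted p = 0.0926). In the probe set that gave -0.31 they read 11.99, 12.09 and 12.07 in water and 11.70, 11.87 and 11.65 with LCO (adjusted p = 0.129). A probe set shared by GSTL2 and GSTL3 had the other sign, at 0.28 (adjusted p = 0.301), close to background at 4.22, 4.09 and 4.17 in water and 4.15, 4.46 and 4.72 with LCO. GSTL7 had a change of -0.21 (adjusted p = 0.345).

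DHAR3, a dehydroascorbate reductase that returns oxidised ascorbate to its reduced form and matches the rule through the synonym GmGSTDHAR1, read 9.87, 10.22 and 10.54 in water and 10.67, 11.17 and 11.46 with LCO. The groups did not overlap, with LCO 1 just above water 3, and the change of 0.89 (SE 0.25, 95% interval from 0.29 to 1.49) did not pass (adjusted p = 0.0998). DHAR4, another gene of this kind that does not match the rule, was at -0.28 (adjusted p = 0.170).

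GSTT1 of the theta class read 9.16, 9.16 and 9.05 in water and 9.36, 9.22 and 9.30 with LCO in its first probe set (0.17, interval from -0.05 to 0.40), and the second gave 0.10. A 2-fold change in either direction lies outside both intervals. GSTIR read 7.06, 7.07 and 6.94 in water and 7.33, 7.29 and 7.40 with LCO in its _s_at probe set, which put every LCO array above every water array (0.32, SE 0.09, adjusted p = 0.107). Its other probe set gave 0.07, with LCO 1 at 5.31 and the other LCO arrays at 6.34 and 6.48.

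**Figure D3:**
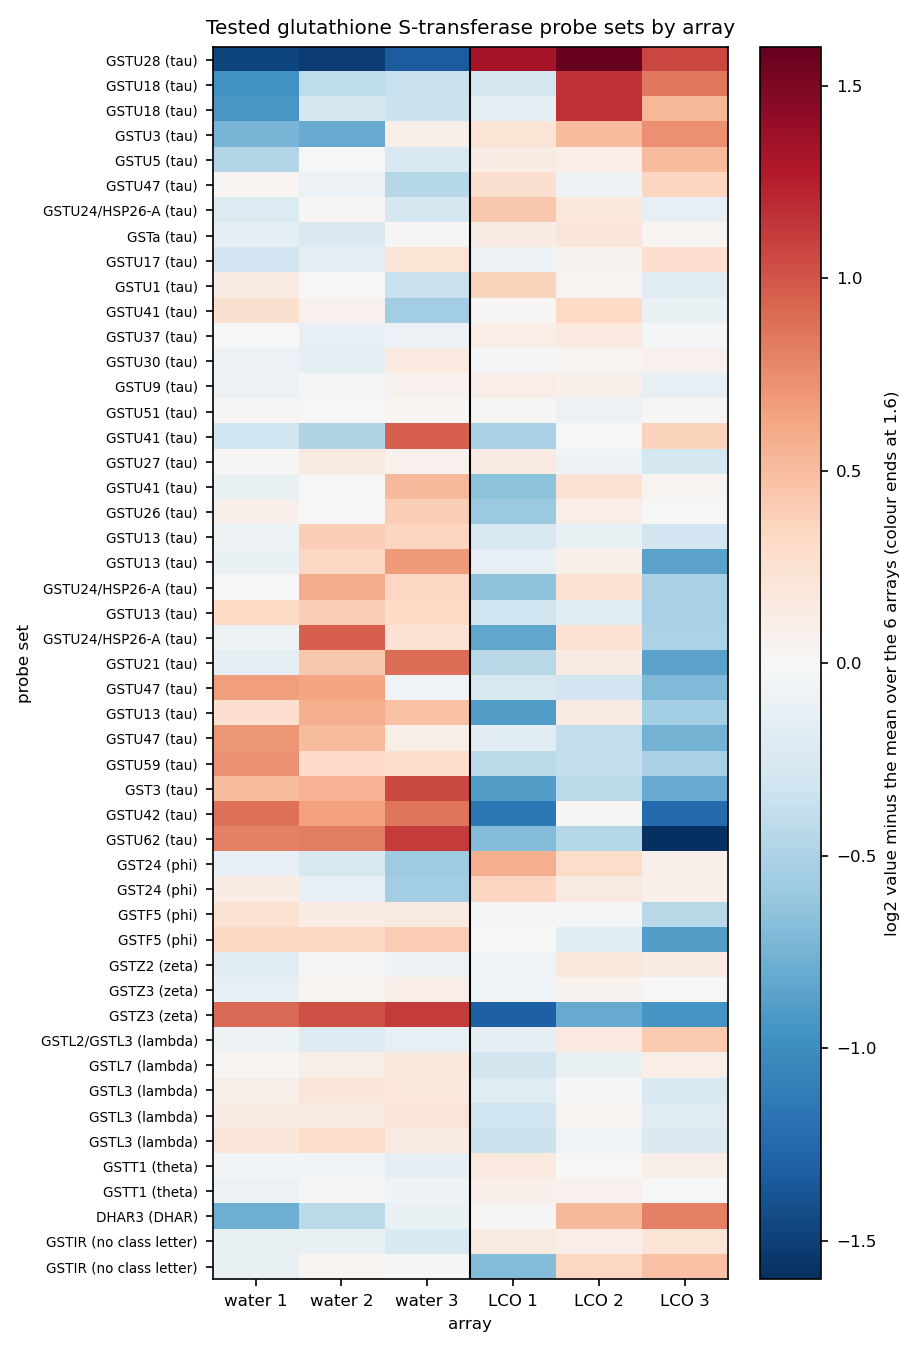
Each tested probe set (rows, by class and then by change) in each array (columns), as its log2 value minus its mean over the 6 arrays. GSTU28 at the top and the GSTZ3 probe set that fell change colour sharply at the line between water and LCO, while for GSTU3 water 3, and for GSTU42 LCO 2, lie nearer the other group.

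Genes with several probe sets show how far a call belongs to a gene or to a probe set. There were 10 such genes with at least 2 tested probe sets that are theirs alone, and in 8 of them all estimates had 1 sign. GSTU13 was lower in 4 of 4, from -0.44 to -0.87, though 1 passed, the one whose ID ends in _x_at. That probe set shares the stem of its ID with another of the 4. A further one read 3.23, 3.36 and 3.17 with LCO, around background. The estimate of -0.87 came from a probe set with A1 in its ID, while the IDs of the other GSTU13 probe sets hold S1. Whether A1 and S1 probe sets read the same strand was not tested. GSTU18, GST24, GSTT1 and GSTIR were higher in both, and GSTL3 and GSTF5 lower in all. The probe sets of GSTL3 also include a pair with a shared ID stem. GSTZ3 counts as of 1 sign but had the largest gap, 2.02, between its probe sets.

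GSTU47 and GSTU41 had estimates of both signs. For GSTU47, a probe set read 11.95, 11.91 and 11.23 in water and 11.04, 10.98 and 10.58 with LCO (-0.83, SE 0.23, adjusted p = 0.0973). A further one read 11.66, 11.46 and 11.04 against 10.77, 10.57 and 10.19 (-0.88, SE 0.21, adjusted p = 0.0752). In both, water 3 was the lowest water array and still above the LCO arrays. The third probe set of GSTU47 read 7.41, 7.29 and 6.93 in water and 7.64, 7.30 and 7.73 with LCO (0.35, adjusted p = 0.258), and there the groups overlapped. Its ID holds A1, while those of the lower GSTU47 probe sets hold S1. The third minus the first changed by 1.17 with LCO (exact two-sided permutation p = 0.1, the smallest possible). Without water 3 both lower probe sets passed, at adjusted p = 0.0283 and 0.0375. Each passed in that 1 fit of the 6 that leave out an array. For GSTU41 the 3 estimates lay between -0.26 and 0.15. Here, too, the only estimate above 0 came from the probe set with A1 in its ID.

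HSP26-A, known as a soybean gene induced by heat and auxin and listed as GSTU23, shares its 3 probe sets with GSTU24, so the 2 genes cannot be separated. These probe sets gave -0.74, -0.62 and 0.31. All 3 share the stem of their IDs, and the ID of the last holds A1 where those of the others hold S1. In the first the arrays read 6.05, 7.09 and 6.37 in water and 5.30, 6.36 and 5.63 with LCO. In the second they read 6.06, 6.65 and 6.38 against 5.41, 6.28 and 5.54, and in the third 5.37, 5.61 and 5.30 against 6.02, 5.76 and 5.45. The groups overlapped in all 3, and no adjusted p was under 0.199.

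**Figure D4:**
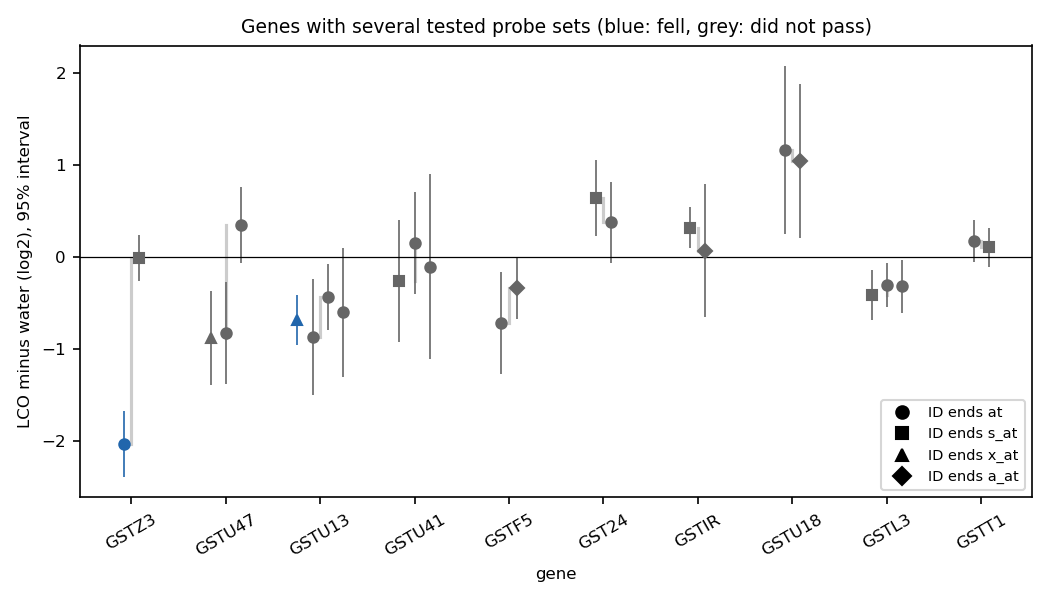
Log2 change (y axis, with 95% intervals) of every tested probe set of the 10 genes that have several, with marker shape showing the ending of the probe set ID. The GSTZ3 probe sets lie 2.02 apart and those of GSTU47 fall on both sides of 0, whereas those of GSTT1 lie within 0.07 of each other.

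Many of these genes stand side by side. In the order of protein-coding genes of the RefSeq assembly Glycine_max_v4.0, 42 of the 74 genes that match the rule lie in 15 unbroken runs of at least 2, and 25 of the 42 have a member on the array. The longest run holds 9 tau genes, in the order GSTU22, HSP26-A, GSTU24, GSTU25, GSTU26, GSTU27, GSTU28, GSTU30 and GSTU33. Within it GSTU28 rose by 2.88 while the estimate was -0.31 for GSTU26 (interval from -0.82 to 0.20), -0.15 for GSTU27 (from -0.46 to 0.16) and 0.06 for GSTU30 (from -0.21 to 0.34). The intervals of these 3 neighbours do not reach that of GSTU28. In the run from GSTU47 to GSTU51, GSTa next to GSTU47 was at 0.25 and GSTU51 at -0.04. GSTU18 was at 1.16 and 1.04, and the tested probe set assigned to GSTU17, the gene beside it, at 0.16. The ID of that probe set shares its stem with the GSTU35 probe set, and another GSTU17 probe set was too dim to be tested. GSTU1 and GSTU3 are neighbours too, at 0.16 and 0.97.

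**Figure D5:**
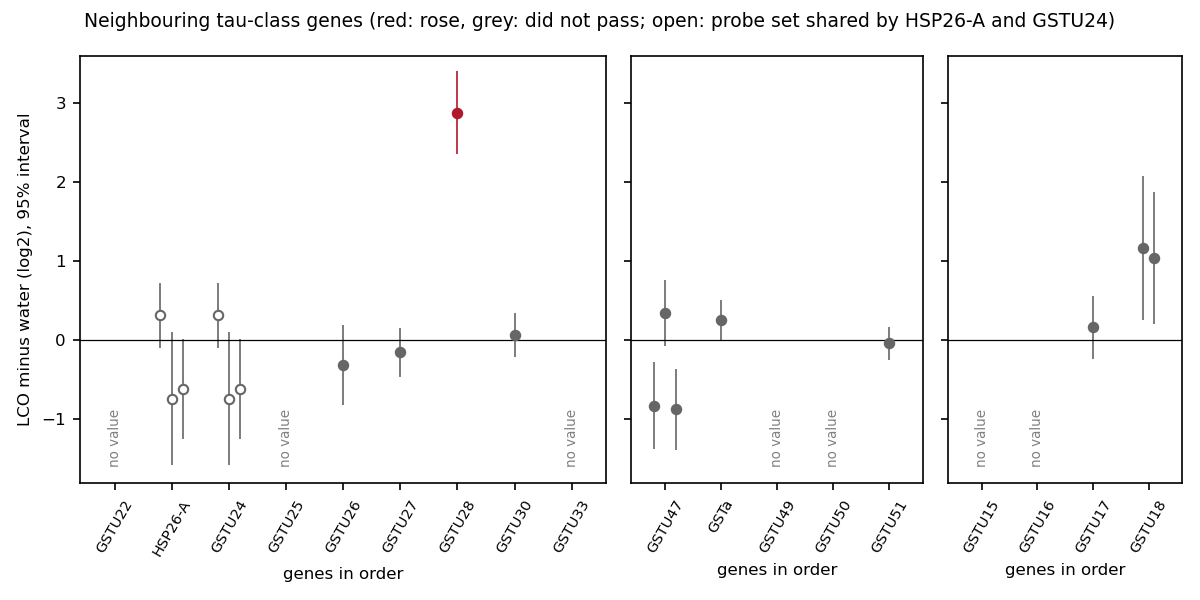
Log2 change (y axis, with 95% intervals) along 3 runs of neighbouring tau-class genes in annotation order (x axis, not to scale in distance); genes with no tested probe set are marked. Only GSTU28 in the first run passed, at 2.88, between GSTU27 at -0.15 and GSTU30 at 0.06.

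The 14 members that were not tested comprise 9 tau, 3 phi and 2 lambda probe sets. All 14 have IDs that end in _at, and their group means lay between 2.14 and 3.34. GSTU16, GSTU35, GSTU43, GSTU44 and GSTU58 of the tau class, GSTF7 and GSTF11 of phi and GSTL1 of lambda have no other probe set here. The others belong to genes with a further probe set that was tested. A GSTU17 probe set among them read 2.81, 2.82 and 2.75 in water and 2.87, 3.38 and 3.47 with LCO, so that LCO 2 and LCO 3 came above background. The tested probe set assigned to GSTU17 shares the stem of its ID with the probe set of GSTU35, and gave 0.16 (interval from -0.24 to 0.56). With no filter on dim probe sets, the counts of members that rose and fell were still 1 and 5.

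The genes that work beside these enzymes supply glutathione, recycle it or remove superoxide, peroxides and methylglyoxal. The list of such genes holds 45 probe sets, of which 35 were tested and none passed, beside 3.55% of all probe sets. At an unadjusted p under 0.05 there were 10 of the 35, 6 lower and 4 higher, which is near the 25.8% of all probe sets. The count past the adjusted threshold was 1 without water 3 or without LCO 1. Estimates were lower in 26 of the 35 (74.3%), beside 14930 of the 29286 probe sets tested, with a median of -0.11 beside -0.01. HGS, of homoglutathione synthesis, read 9.69, 9.62 and 9.67 in water and 9.42, 9.63 and 9.68 with LCO (-0.08, interval from -0.33 to 0.17). GR, the reductase that regenerates glutathione, gave -0.13 and -0.11 in its 2 probe sets. The 7 tested ascorbate peroxidase probe sets ran from -0.95 to 0.15, the 7 of catalase from -0.42 to 0.06 and the 9 of the glyoxalases from -0.70 to 0.25. The 4 tested probe sets of genes with PRX symbols ran from -0.15 to 0.66, with 3 higher. The highest was PRX2, which read 9.67, 9.55 and 10.24 in water and 10.24, 10.50 and 10.69 with LCO (0.66, SE 0.21, adjusted p = 0.125), so that water 3 reached LCO 1.

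The smallest p-values of this list were those of superoxide dismutases, which turn superoxide into hydrogen peroxide, and they had opposite signs. SOD1 read 7.28, 7.27 and 7.20 in water and 7.62, 8.04 and 7.96 with LCO (0.62, SE 0.13, adjusted p = 0.0588). A probe set of the iron enzyme gene SODB read 9.88, 9.44 and 9.89 against 8.71, 8.68 and 9.18 (-0.88, SE 0.19, adjusted p = 0.0610), and its other probe set gave -0.24. The groups did not overlap in either gene. CAT1, a catalase, read 9.55, 9.57 and 9.45 in water and 9.32, 9.04 and 8.96 with LCO (-0.42, SE 0.12, adjusted p = 0.108). A probe set of the ascorbate peroxidase gene APX2 read 9.13, 8.76 and 9.56 against 7.69, 8.28 and 8.62 (-0.95, SE 0.29, adjusted p = 0.113). In both, every LCO array lay below every water array, with LCO 3 close to water 2 for APX2. Another tested APX2 probe set gave -0.26 (adjusted p = 0.292), and a probe set shared by APX2 and APX1 gave -0.02. A further APX2 probe set lay at background and was not tested.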

How the data were processed

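Per the labels, total RNA of the sprayed leaf was labelled as biotin cRNA and hybridised to 1-colour arrays. The authors deposited a single value for each probe set and array. Per the submitters' processing notes these come from RMA, a method that corrects, normalizes and summarises probes. That the deposited values are log2 is not stated, and was inferred from their range of 1.45 to 14.6. All 6 columns were used, grouped by title. The number of arrays limits the precision.

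The 29286 soybean probe sets above background went into a limma model (version 3.58.1, R 4.3.3) with lmFit and eBayes and no term besides group. P-values were adjusted by Benjamini-Hochberg over all of them. Probe sets were paired with genes through the platform annotation and the Entrez identifiers of RefSeq genes. Of the 63 members, 59 are paired with 1 gene and 4 with several. Probe sets that the table pairs with no gene were not used here. The model was run on simulated data with known changes. It recovered 58% of those with a log2 size of 1 and 86.4% of those with a size of 2. The simulated noise was independent and of equal spread in all arrays, unlike these arrays, so these shares may not hold here.

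Values by array are given for members past the threshold, for the member of each class with the highest mean and that with the largest change, and for genes whose probe sets had opposite signs with a change over 0.5. From the list of other redox genes, the 4 smallest p-values were taken. Any gene beyond these was picked after its values were known. The members, lists and this rule were chosen with earlier results of these data known. Other settings tried were no filter or a stricter one, quantile normalization, a trended robust prior, array weights, the replicate block, water 1 and 2 averaged, probe sets averaged by gene, and fits that omit an array. The planned comparison of protein and promoter sequences was not analysed here. Permutation tests used scipy 1.17.1.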

Additional observations from a re-analysis of the deposited data

How the results depend on the processing

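The single call that rose and the 5 that fell were unchanged in number with no filter, with a stricter filter, with a trended robust prior and without GSTIR and DHAR3 (added after seeing the data), and were 1 and 6 after quantile normalization over soybean probe sets and 1 and 4 with 1 mean per gene. With water 1 and 2 averaged, 203 soybean probe sets were called, beside 1040 without averaging, and 1 member was lower. Array weights called 9544 probe sets, with 8 members higher, 10 lower and 10 of the other redox genes. With the replicate block 3010 probe sets, 6 members higher, 11 lower and 5 of the other redox genes passed. The correlation of deviations was 0.452, -0.04 and 0.527 between same-numbered arrays of the groups. Between differently numbered ones it ran from -0.542 to 0.448. These values do not settle whether the replicate numbers pair the arrays, so the block is given only as a further setting. With each array left out in turn, the called probe sets ranged from 193 to 2207, the members that rose from 1 to 2, those that fell from 1 to 7 and the other redox genes from 0 to 1. The median change of the tested members was between -0.08 and 0.07 over the other settings and -0.13 without GSTIR and DHAR3, and that of the tau class between -0.24 and -0.01, beside -0.13. The causes of these shifts were not tested. No changed member reversed its sign under any of these settings.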
